A study of Mus musculus with 5 samples.

Results

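To describe how the hyaluronan system of the uterus differed after exposure to seminal plasma (SP) of aged and young males, 9 genes were followed through the deposited count table by their symbols: the synthases Has1, Has2 and Has3, the breakdown genes Hyal1, Hyal2 and Cemip, and the binding genes Cd44, Vcan and Tnfaip6. All 9 were found among the 28666 listed genes, and all 9 had enough counts to be tested. The genes share a function, and no measured value enters the rule that selects them, though the list was drawn up with earlier results of these data known. The libraries were made from RNA of uteri of female ICR mice, an outbred stock, aged 6 to 8 weeks. The females were pseudopregnant after mating with vasectomized C57BL/6 males, whose ejaculate holds SP but no sperm. The aged-SP group (2 libraries, replicates 1 and 4) had been caged with aged males and the young-SP group (3 libraries, replicates 1, 2 and 4) with young males. The labels place the collection 3.5 days after caging, and the study's methods give a slightly earlier time counted from the copulatory plug. Neither source says how many females went into a library, so the p-values measure the spread between these libraries. The study reports that it excluded a young-SP sample as an outlier in hierarchical clustering. The young-SP spread is therefore that of the libraries kept.

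Hyaluronan is a long unbranched sugar chain that synthases in the plasma membrane build from activated glucuronate and N-acetylglucosamine and push out of the cell. The chain holds water, and it gains structure from proteins that dock on it: the large proteoglycan versican (Vcan) binds it with one end, link proteins lock that contact, and the secreted protein of Tnfaip6 (TSG-6) cross-links chains by moving heavy chains of inter-alpha-inhibitor onto them. Hyaluronidases and the protein of Cemip cut it, and cells sense it through CD44. In the mouse uterus, hyaluronan and versican belong to the loose matrix of the endometrial stroma.

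Total counts lay between 15071914 and 16728601 per library. No 2 libraries were alike within sampling noise: over the 10 pairs, chi-square divided by its degrees of freedom ran from 17 to 82.3. The tissue label was checked on markers: the summed level of 7 endometrial stroma genes lay between 3477 and 4896 CPM, the counts scaled to library size, and that of 5 myometrium genes between 8493 and 13520 CPM, in all 5 libraries. Of 5 vagina and cervix genes, 4 stayed under 1 CPM in every library, as did 3 of 4 adipose tissue genes. Their low sums did not overlap between the groups, at 1.15 to 1.73 CPM in the aged-SP against 1.75 to 2.60 CPM in the young-SP libraries for vagina and cervix, and at 3.20 to 4.09 CPM against 4.504 to 6.74 CPM for adipose tissue. Of the 3 ovary genes, Amh and Cyp11a1 were near 0, at no more than 0.267 and 0.895 CPM, while Foxl2 lay between 29.96 and 45.5 CPM in the 5 libraries. Young-SP replicate 1 stood apart from its group in the summed level of the 6 gland genes, at 508 CPM. The sum was 50.7 and 41.7 CPM in young-SP replicates 2 and 4 and 4078 and 2930 CPM in aged-SP replicates 1 and 4. In young-SP replicate 1 it was mostly Prss28 and Prss29, at 90.7 and 385 CPM. These were at most 0.355 and 11.5 CPM in young-SP replicates 2 and 4.

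By edgeR's quasi-likelihood test, 0 of the 9 genes were called at an adjusted p under 0.05 with an absolute log2 fold change over 1, where 0.147% of all tested genes were called. Limma-voom called 0 as well. At an unadjusted p under 0.05 there were 4 of the 9 (Vcan, Has2 and Tnfaip6, lower in the aged-SP group, and Hyal2, higher), against 19.0% of all tested genes. DESeq2's Wald test called 2 of the 9, Vcan and Has2, both lower. Of all genes with an adjusted p, it called 3.60% in either direction and 1.92% lower. For 5 of the 9 the groups were apart, against 38.8% of all tested genes. The aged-SP libraries were the lower ones for 3 of the 9, against 19.3% of all tested genes, and for 3286 of the 6606 tested genes whose groups were apart. Over the 9 genes the median log2 fold change was -0.22, against 0.01 over all tested genes. Without young-SP replicate 1, a count made after the data were seen, the groups were apart in 6 of the 9 and in 55.4% of all tested genes. In bulk RNA, a smaller number of cells of a type and less RNA per cell cannot be told apart. By role, all 3 binding genes and 2 of the 3 synthases had negative log2 fold changes of the aged-SP over the young-SP group. All 3 breakdown genes had positive ones. Of the 17013 tested genes, 8350 had negative and 8663 had positive log2 fold changes. The confidence intervals of Has1, Has3, Hyal1, Cemip and Cd44 held 0, and the sign of Has3 turned without young-SP replicate 2. With 3 genes per role, the signs cannot decide whether the roles differ.

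**Figure D1:**
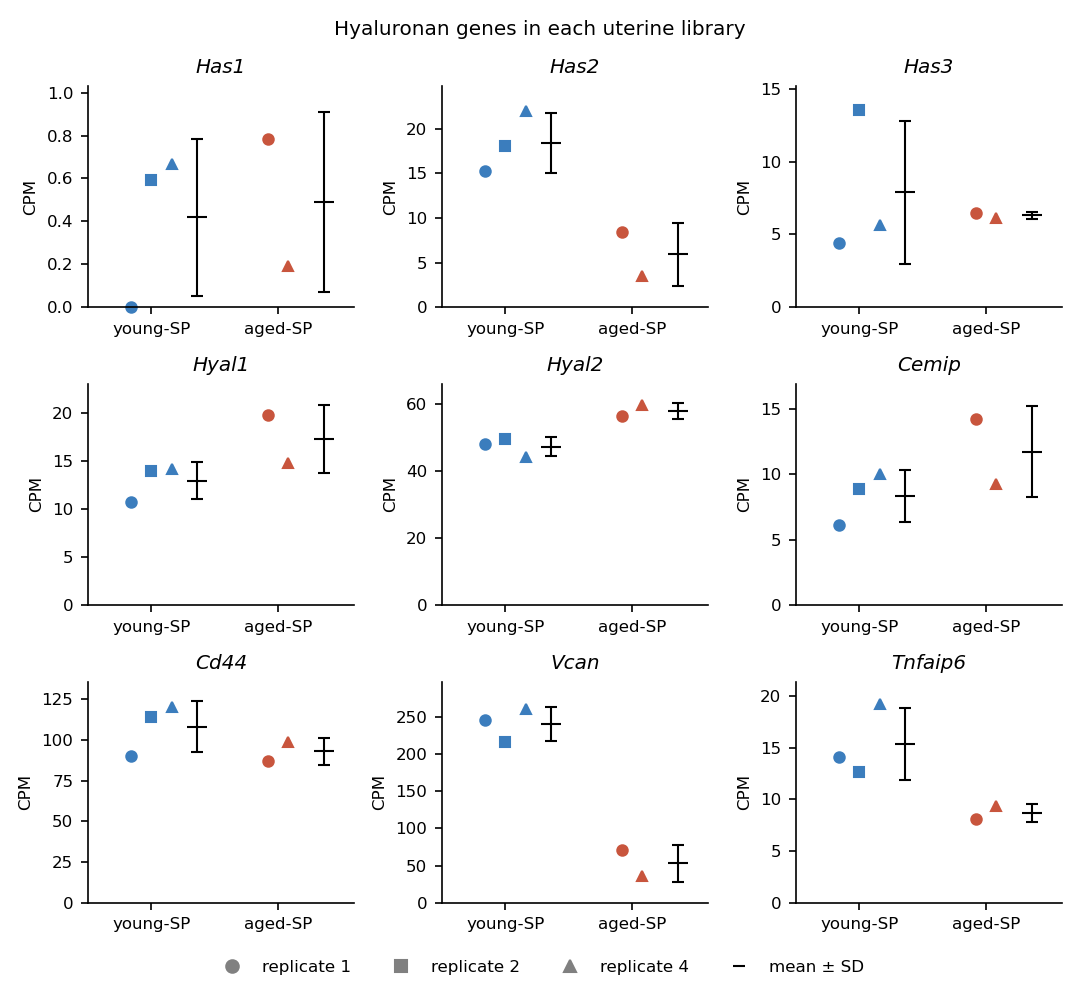
Level of each of the 9 genes (vertical axes, CPM, starting at 0) in the young-SP (blue) and aged-SP (red) libraries, with the replicate given by the symbol and the group mean ± SD in black. Both aged-SP libraries lie under all young-SP libraries for Has2, Vcan and Tnfaip6 and above them for Hyal1 and Hyal2, while the groups overlap for Has1, Has3, Cemip and Cd44.

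FPKM values, fragment counts corrected for both depth and gene length, allow the genes to be set against each other. In the young-SP group, Vcan led at 16.7 ± 1.34 FPKM (SD, n = 3), followed by Cd44 at 16.01 ± 2.41 and Hyal2 at 14.4 ± 1.03, and the library ranges of each of these neighbours overlapped. Tnfaip6 at 8.98 ± 1.93 FPKM was clear of the genes above and below it. Has2 at 4.35 ± 0.796 and Hyal1 at 3.44 ± 0.542 FPKM overlapped, as did Has3 at 1.25 ± 0.802 and Cemip at 0.684 ± 0.166 FPKM. Has1 was last at 0.202 ± 0.176 FPKM. In the aged-SP group the order was different. Hyal2 led at 17.5 ± 0.817 FPKM (SD, n = 2), clear of Cd44 at 13.6 ± 1.32, and Vcan took the fifth place at 3.65 ± 1.67 FPKM, behind Tnfaip6 (5.07 ± 0.539) and Hyal1 (4.54 ± 0.901) but with a range that overlapped both, and clear of Has2 (1.39 ± 0.812). Has2, Has3 (0.981 ± 0.0302) and Cemip (0.952 ± 0.277) followed with ranges that overlapped from each to the next, and Has1 was again last at 0.232 ± 0.198 FPKM.

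The binding genes hold the largest difference, and the bases before their starts are shown because these 3 genes span it: Vcan was far lower in the aged-SP group, Tnfaip6 less so, and Cd44 overlapped between the groups. Each sequence is read 5′ to 3′ on the strand of the gene, comes from RefSeq's table for GRCm38.p6 and ends before the gene start in both RefSeq and GENCODE M21. Capitals mark TGACTCA, the AP-1 motif, on either strand (TGAGTCA on the other). They are chr13:89742513-89742762 (minus strand) for Vcan, chr2:102901666-102901915 (minus strand) for Cd44 and chr2:52037863-52038008 (plus strand) for Tnfaip6.
Vcan: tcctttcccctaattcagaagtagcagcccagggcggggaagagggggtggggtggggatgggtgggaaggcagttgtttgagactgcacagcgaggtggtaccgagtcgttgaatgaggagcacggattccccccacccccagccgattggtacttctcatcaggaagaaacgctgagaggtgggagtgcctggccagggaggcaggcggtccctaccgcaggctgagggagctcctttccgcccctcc
Cd44: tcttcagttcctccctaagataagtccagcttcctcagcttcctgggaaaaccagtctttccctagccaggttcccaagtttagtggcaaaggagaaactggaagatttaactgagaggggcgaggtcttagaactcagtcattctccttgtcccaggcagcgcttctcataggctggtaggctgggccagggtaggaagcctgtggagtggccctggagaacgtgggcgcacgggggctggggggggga
Tnfaip6: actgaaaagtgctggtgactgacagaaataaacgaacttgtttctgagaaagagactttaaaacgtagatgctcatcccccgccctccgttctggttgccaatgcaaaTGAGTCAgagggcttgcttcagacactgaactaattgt
The motif was found once, before Tnfaip6, beginning 38 bases before the GENCODE start. It occurs in the 250 bases before the RefSeq start of 4.46% of the 32851 genes in that table. TATAAA (12.4% of these genes) and the inverted-repeat steroid receptor element (0.387%) were searched on both strands too and had 0 matches before these 3 genes. Cemip had 1 TATAAA, beginning 29 bases before its RefSeq start. None of the members with an entry held more than 1 match, so no matches overlapped. Entries for Has2 and Has3 were not used here. GC content in the 250 bases was 62.4% for Vcan, 56.4% for Cd44 and 44.4% for Tnfaip6, and the median of all entries was 52.4%.

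Vcan encodes the hyaluronan-binding proteoglycan of loose connective tissue. It lies on chromosome 13 (89655312 to 89742509, minus strand) with up to 15 exons, and none of its exonic bases are shared with another gene. Its level was 245.5, 216 and 260.2 CPM in young-SP replicates 1, 2 and 4 and 70.6 and 35.8 CPM in aged-SP replicates 1 and 4. The groups were wide apart, with the lowest young-SP library over the highest aged-SP library. The level was 4.52-fold lower in the aged-SP group, which is -2.18 in log2 (SE 0.31, 95% interval -2.95 to -1.40), and missed the threshold in edgeR (adjusted p = 0.0734). In size, 1.13% of the tested genes had a more negative log2 fold change, and in edgeR's p it ranked at place 135 of 17013. DESeq2 gave an adjusted p of 1.83e-10. The call also depended on which libraries were fitted. Without young-SP replicate 1 edgeR called Vcan (adjusted p = 0.0381), at a log2 fold change of -2.17. Its own unadjusted edgeR p was larger there, at 0.00132 against 0.000597 with all libraries. That fit called 578 of all tested genes, against 25 with all libraries. Without young-SP replicate 2 or 4 the adjusted p was 0.213 or 0.231, at log2 fold changes of -2.25 and -2.12. The splice forms of Vcan were not separated in the counts.

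Tnfaip6 encodes TSG-6, which is induced in inflammation and in the expanding cumulus. Its level on chromosome 2 (52038009 to 52056686) was 14.1, 12.7 and 19.2 CPM in young-SP replicates 1, 2 and 4, against 8.10 and 9.34 CPM in aged-SP replicates 1 and 4. Each aged-SP library was under each young-SP library, by a smaller margin than for Vcan. Its log2 fold change of -0.81 (SE 0.23) had an adjusted p of 0.166 in edgeR and of 0.05005 in DESeq2 (narrowly over the threshold). The size also stayed under the fold threshold.

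Cd44, the main hyaluronan receptor of leukocytes and of many epithelial and stromal cells, lies on chromosome 2 (102811141 to 102901665, minus strand). It had 90.4, 114 and 120.1 CPM in young-SP replicates 1, 2 and 4 and 87.1 and 99.0 CPM in the aged-SP libraries. Young-SP replicate 1 lay inside the aged-SP range. The log2 fold change was -0.22 with a 95% interval of -0.59 to 0.16 (adjusted p = 0.477 in edgeR), so a change of the size seen for Vcan lay outside the interval. On the per-length scale, Vcan stood at 1.27, 0.887 and 1.02 times Cd44 in young-SP replicates 1, 2 and 4 and at 0.380 and 0.169 times in aged-SP replicates 1 and 4. Both aged-SP ratios were under every young-SP ratio.

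Has2 makes most of the hyaluronan in embryonic and stromal tissues. It lies on chromosome 15 (56665627 to 56694539, minus strand), and 4.3% of its exonic bases are shared with the antisense transcript Has2os. The library kit does not mark strand, so reads in that stretch cannot be told apart, but Has2os itself stayed between 0.734 and 1.66 CPM. Has2 was at 15.2, 18.0 and 22.0 CPM in young-SP replicates 1, 2 and 4 and at 8.40 and 3.45 CPM in aged-SP replicates 1 and 4. The groups did not overlap, and the aged-SP libraries differed from each other by more than any pair of young-SP libraries did in ratio. The level was 3.10-fold lower in the aged-SP group (log2 fold change -1.63, SE 0.41, 95% interval -2.66 to -0.60, adjusted p = 0.139 in edgeR and 0.00274 in DESeq2). The size rested in part on aged-SP replicate 4: the log2 fold change was -1.13 without it and -2.41 without aged-SP replicate 1.

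Has3, the synthase credited with shorter chains, lies on chromosome 8 (106870242 to 106884566), where 5.52% of its exonic bases are shared with Chtf8 on the other strand. It was at 4.44, 13.5 and 5.67 CPM in young-SP replicates 1, 2 and 4 and at 6.47 and 6.14 CPM in the aged-SP libraries. Only replicate 2 was higher than the aged-SP libraries, and the sign of the difference rested on it: the log2 fold change was -0.32 (95% interval -1.59 to 0.95, adjusted p = 0.767 in edgeR) and 0.32 without that library. Has1, on chromosome 17 (17843328 to 17855188, minus strand), was barely detected, with 0, 10 and 10 counts in the young-SP libraries and 13 and 3 in the aged-SP libraries. The 0 in young-SP replicate 1 allows a level of up to 0.187 CPM (3 counts, counting error only). Its 95% interval ran from -2.66 to 3.12 on the log2 scale, and the libraries of each group differed widely.

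**Figure D2:**
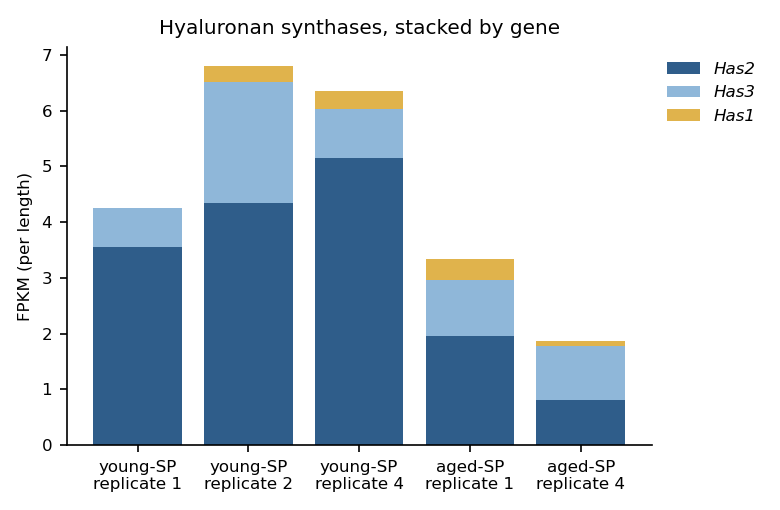
Level of the 3 hyaluronan synthases (vertical axis, FPKM, starting at 0), stacked by gene for each of the 5 libraries. The summed level lies between 4.25 and 6.80 FPKM in the young-SP libraries and is 3.34 and 1.86 FPKM in the aged-SP libraries. The Has2 part is shorter in both aged-SP libraries than in any young-SP library.

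Because the 3 synthases make the same product, their per-length levels were also added. The sum was 4.25, 6.80 and 6.35 FPKM in young-SP replicates 1, 2 and 4 and 3.34 and 1.86 FPKM in aged-SP replicates 1 and 4. Has2 made up 83.7%, 63.9% and 81.1% of the sum in the young-SP libraries and 58.8% and 43.6% in the aged-SP libraries. It was the leading synthase in every library but aged-SP replicate 4, where Has3 held 51.5%.

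The breakdown genes had higher means in the aged-SP group, by small amounts. Hyal2 encodes a hyaluronidase anchored to the cell surface, which cuts the long chains into pieces. It was at 48.1, 49.5 and 44.1 CPM in young-SP replicates 1, 2 and 4 and at 56.3 and 59.7 CPM in aged-SP replicates 1 and 4. The replicates of each group lay close together and the groups were apart, with a log2 fold change of 0.30 (SE 0.09, 95% interval 0.06 to 0.53, adjusted p = 0.194 in edgeR). Hyal1 encodes the lysosomal hyaluronidase that acts on the pieces. It was at 10.7, 14.0 and 14.2 CPM against 19.8 and 14.8 CPM in the same order, and the lower aged-SP library was next to the upper young-SP library (log2 fold change 0.42, adjusted p = 0.346 in edgeR). Its count is uncertain, since 51.9% of its exonic bases are shared with Naa80 and Hyal3 on the same strand, and Naa80 was itself at 24.5 and 19.6 CPM in the aged-SP libraries and between 16.1 and 18.0 CPM in the young-SP libraries. Hyal2 and Hyal1 are neighbours on chromosome 9, with 4147 bases between them (107567945 to 107572779 and 107576927 to 107581710). Cemip, on chromosome 7 (83932857 to 84086502, minus strand), encodes a protein needed for hyaluronan breakdown in fibroblasts. It overlapped between the groups, at 6.13, 8.87 and 10.01 CPM in the young-SP and 14.2 and 9.27 CPM in the aged-SP libraries (log2 fold change 0.49, 95% interval -0.24 to 1.23, adjusted p = 0.418 in edgeR). Summed per length, the breakdown genes stood at 17.8, 19.9 and 17.9 FPKM in the young-SP libraries and at 23.2 and 22.7 FPKM in the aged-SP libraries, and Hyal2 made up between 72.8% and 81.4% of the sum.

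The rest of the pathway was read from a list of precursor enzymes, other breakdown genes, other receptors, link and coat proteins, versican proteases and partners of CD44. Of the 46 listed genes, 37 were tested. By edgeR 0 of the 37 were called. An unadjusted p under 0.05 was reached by 12 of the 37, against 19.0% of all tested genes, and of the 12, 6 had positive and 6 negative log2 fold changes. Limma-voom called 0 of them, and DESeq2 called 2, Hapln1 and Hapln3, both lower. Of all genes with an adjusted p, DESeq2 called 3.60% in either direction and 1.92% lower. The median log2 fold change of the 37 was -0.02.

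**Figure D3:**
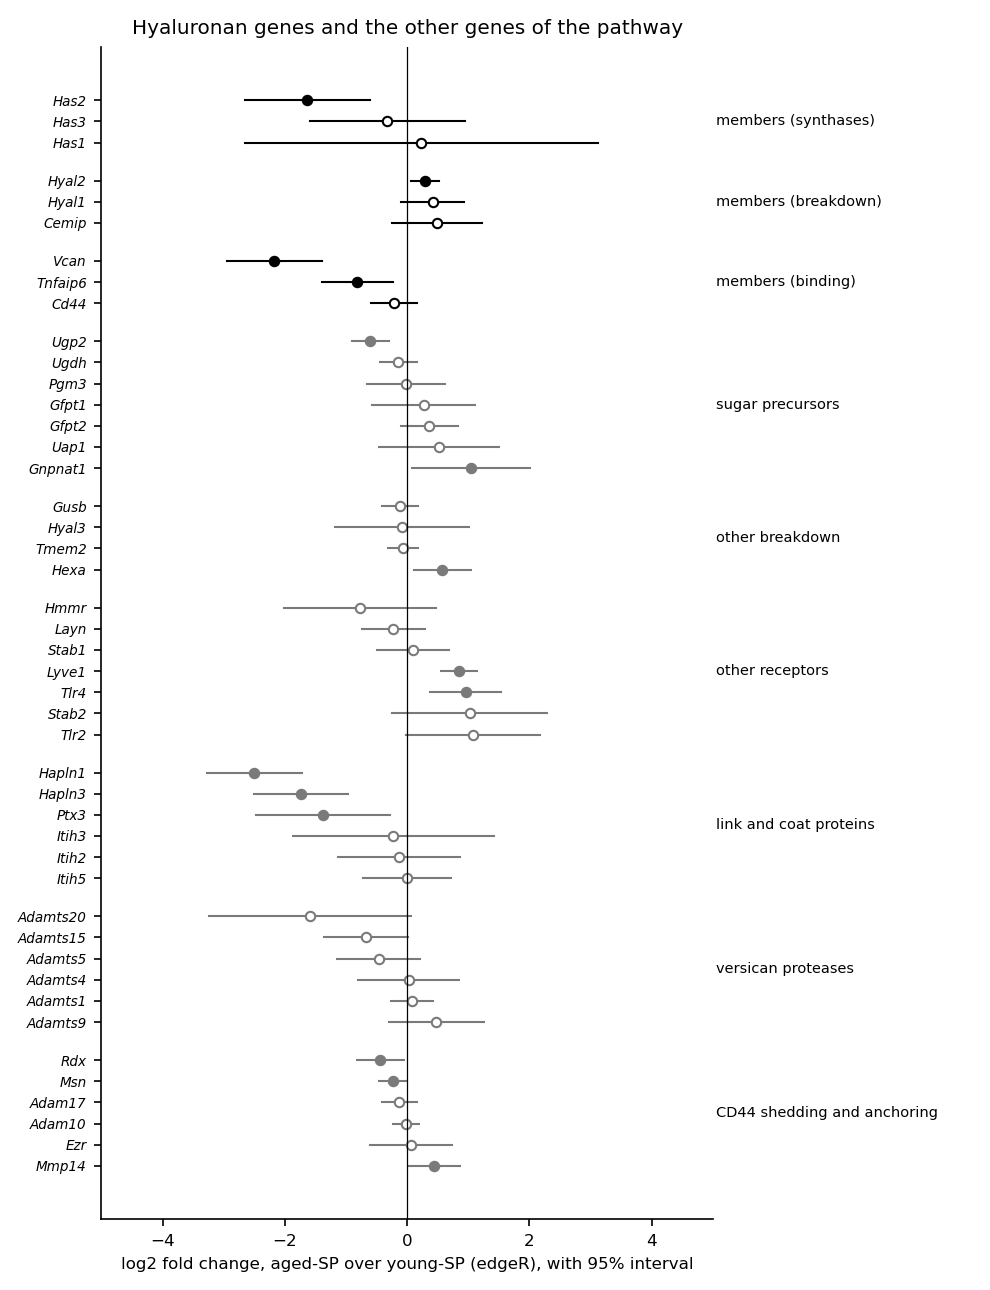
Log2 fold change of the aged-SP over the young-SP group from edgeR (horizontal axis) with its 95% interval, for the 9 genes (black) and other tested genes of the pathway (grey), grouped by role. Filled points have an unadjusted p under 0.05, and none of the genes passed the adjusted threshold. The most negative values are those of Hapln1 (-2.50), Vcan (-2.18), Hapln3 (-1.73) and Has2 (-1.63).

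Among the 6 tested link and coat proteins, 3 had an unadjusted p under 0.05, against 19.0% of all tested genes, and all 6 had negative log2 fold changes, as did 8350 of the 17013 tested genes. The other 8 genes of this list had too few counts to be tested. Among them, Hapln2, a link protein of the nervous system, had 8 and 17 counts in aged-SP replicates 1 and 4 and 5, 0 and 1 in young-SP replicates 1, 2 and 4, and Itih4 had 4 and 4 against 0, 0 and 1, both named after their values were seen. Hapln1 and Hapln3 encode link proteins, which clamp proteoglycans of the versican family onto hyaluronan. Hapln1 had 82, 86 and 109 counts in young-SP replicates 1, 2 and 4 and 19 and 14 counts in aged-SP replicates 1 and 4. The aged-SP level was 5.66-fold lower (log2 fold change -2.50, SE 0.31, adjusted p = 0.0674 in edgeR and 1.02e-06 in DESeq2). Hapln1 is the neighbour of Vcan on chromosome 13 (89539796 to 89611652), and 43.7 kb separate them. Hapln3 had 71, 74 and 45 counts against 21 and 17 (log2 fold change -1.73, adjusted p = 0.0867 in edgeR and 0.00283 in DESeq2). Both genes were at low levels, under 8 CPM in every library, but neither overlapped between the groups. Ptx3, whose product holds heavy chains on hyaluronan together with TSG-6, was at 3.57, 6.80 and 9.08 CPM in young-SP replicates 1, 2 and 4 and at 2.30 and 2.69 CPM in the aged-SP libraries (log2 fold change -1.38, adjusted p = 0.196 in edgeR). Itih5, of the inter-alpha-inhibitor heavy chain family, was the most abundant of these genes per length and hardly differed in its group means, with an aged-SP mean of 323 ± 98.0 CPM and a young-SP mean of 325 ± 90.6 CPM (SD, n = 2 and 3). Acan, Bcan and Ncan, which encode the other hyaluronan-binding proteoglycans of the versican family, were among the untested genes.

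**Figure D4:**
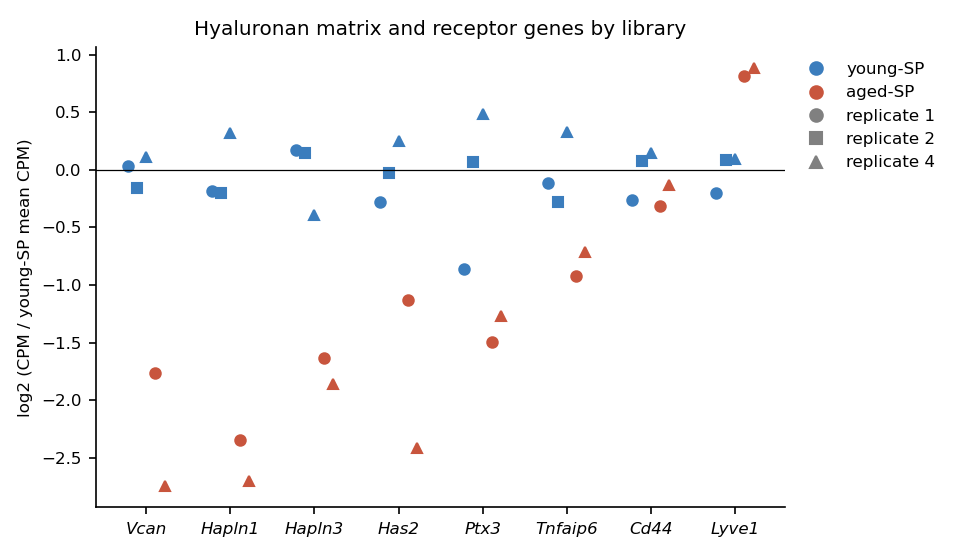
Log2 of the CPM of each library over the mean CPM of the young-SP group (vertical axis) for 6 genes of the hyaluronan matrix and the receptors Cd44 and Lyve1, a selection made after their values were seen. Aged-SP libraries (red) lie under every young-SP library (blue) for Vcan, Hapln1, Hapln3, Has2, Ptx3 and Tnfaip6 and above them for Lyve1, and the groups overlap for Cd44.

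Of the 7 other receptors tested, 2 had an unadjusted p under 0.05, against 19.0% of all tested genes. Lyve1, the hyaluronan receptor of lymphatic vessels and of some macrophages, was at 43.4, 52.8 and 53.1 CPM in young-SP replicates 1, 2 and 4 and at 87.8 and 92.0 CPM in aged-SP replicates 1 and 4. The groups were well apart (log2 fold change 0.85, SE 0.12, adjusted p = 0.0734 in edgeR and 1.39e-05 in DESeq2), and the size stayed under the fold threshold. The lymphatic markers Prox1, Pdpn and Flt4 also had both aged-SP values over every young-SP value, as did 3320 of the 17013 tested genes. The summed level of the lymphatic list lay between 105 and 112 CPM in the aged-SP group and between 43.4 and 78.7 CPM in the young-SP group. Of its 4 genes, 3 were tested, 0 were called by edgeR and 1 (Pdpn) was called by DESeq2, with Ccl21a under 1 CPM. The summed macrophage markers overlapped, at 368 to 581 CPM against 318 to 610 CPM. The part of these cell types in the Lyve1 difference was not tested. Tlr4, an innate receptor that also responds to hyaluronan pieces, was at 89.9 and 65.2 CPM in the aged-SP and between 30.6 and 48.9 CPM in the young-SP libraries. Its log2 fold change of 0.96, also under the fold threshold, had an adjusted p of 0.131 in edgeR and 0.00896 in DESeq2.

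Among the precursor enzymes, Ugp2, which makes the UDP-glucose from which glucuronate is derived, was at 94.6 and 99.97 CPM in the aged-SP and between 128 and 159 CPM in the young-SP libraries. Its log2 fold change of -0.60 had an adjusted p of 0.106 in edgeR and 0.00357 in DESeq2. Gnpnat1, on the route to N-acetylglucosamine, differed by 1.05 in log2 (adjusted p = 0.238 in edgeR) at no more than 1.45 CPM. Hexa, which encodes a subunit of a lysosomal enzyme that trims sugars from the ends of chains, was at 91.4 and 139 CPM in aged-SP replicates 1 and 4 and at 77.6, 72.9 and 81.4 CPM in young-SP replicates 1, 2 and 4 (log2 fold change 0.58, adjusted p = 0.200 in edgeR). Tmem2, the surface hyaluronidase related to Cemip, lay between 36.1 and 41.0 CPM in all 5 libraries.

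Of the 6 versican proteases, 0 had an unadjusted p under 0.05 in edgeR, and 0 were called by edgeR, DESeq2 or limma-voom. For 2 of the 6, Adamts15 and Adamts20, both aged-SP values lay under every young-SP value, against 19.3% of all tested genes. Their log2 fold changes were -0.67 and -1.59 (unadjusted p = 0.0523 and 0.0565 in edgeR), with Adamts20 at no more than 1.27 CPM. The most abundant per length, Adamts1, had an aged-SP mean of 192 ± 38.3 CPM and a young-SP mean of 182 ± 6.73 CPM (SD, n = 2 and 3). Among the partners of CD44, the sheddase gene Adam10 had a log2 fold change of -0.02 and Mmp14, a membrane metalloproteinase, one of 0.44 (adjusted p = 0.929 and 0.255 in edgeR). The linkers of CD44 to actin gave 0.06 for Ezr, -0.44 for Rdx and -0.23 for Msn (adjusted p = 0.922, 0.223 and 0.261 in edgeR).

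The genes whose pattern over the 5 libraries was most like that of Vcan were Calb1, Noct and Gria4, with root mean square differences of centred log2 CPM of 0.21, 0.24 and 0.24, among 11938 genes compared. Calb1, a calcium-binding protein of the uterine epithelium, was at 520, 399 and 558 CPM in young-SP replicates 1, 2 and 4 and at 102 and 60.2 CPM in the aged-SP libraries. For Has2 they were Map2, Ddah1 and Vit (0.22, 0.23 and 0.25). Vit, a matrix protein gene, was at 77.7, 109 and 97.9 CPM in the young-SP and 35.8 and 23.7 CPM in the aged-SP libraries. Has1 was also among the 3 most variable members, and its nearest genes, Cwh43, Tagap1 and Efhd1 (0.47, 0.49 and 0.50), were farther from it. Such likeness over 5 libraries is a description only.

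Markers of the cells that make or hold hyaluronan were read beside these values. Of the 7 endometrial stroma genes, 3 (Pdgfra, Hoxa11 and Hand2) had both aged-SP values under every young-SP value, against 19.3% of all tested genes. The groups overlapped for Hoxa10, Dcn, Lum and Nr2f2, and 0 of the 7 were called by edgeR. An unadjusted p under 0.05 in edgeR was reached by 3 of the 7. Pdgfra, with the most negative log2 fold change of this list, was at 347 and 344 CPM in the aged-SP and between 453 and 617 CPM in the young-SP libraries. Its log2 fold change of -0.65, under the fold threshold, had an adjusted p of 0.120 in edgeR and 0.00476 in DESeq2. The summed stroma level was 3477 to 4228 CPM against 3477 to 4896 CPM. Dcn alone held 1668 to 2537 CPM of it over the 5 libraries. The summed proliferation genes lay between 235.5 and 258.5 CPM in the aged-SP group and between 275 and 669.5 CPM in the young-SP group, without overlap, and the summed mesothelium genes between 163.5 and 172 CPM and between 148 and 246.5 CPM. Epithelium (1105 to 1171 CPM against 704 to 1433 CPM), blood endothelium (541 to 547 CPM against 382 to 692 CPM), leukocytes (101 to 124 CPM against 108 to 154 CPM) and neutrophils (19.4 to 84.5 CPM against 17.8 to 208 CPM) overlapped. The oviduct list overlapped as well, at 107.5 to 149 CPM against 50.2 to 251.5 CPM. The gland sums, given above, did not overlap. In aged-SP replicates 1 and 4 they were mostly Prss28 and Prss29 (1446 and 764 CPM, and 2458 and 2137 CPM). Foxa2 and Lif of the same list overlapped between the groups. Cxcl15 was lower in the aged-SP libraries, at 2.90 and 1.92 CPM against 8.14 to 20.2 CPM. Of the 61 marker genes tested, 0 had an adjusted p under 0.05 in edgeR or limma-voom, 13 had an unadjusted p under 0.05 in edgeR (19.0% of all tested genes did), and DESeq2 called 4 (3.60% of all genes with an adjusted p). Their part in the values of Vcan, Has2 and Tnfaip6 was not tested. Young-SP replicate 1 was above both aged-SP libraries for these 3 genes, and 1 library cannot decide that part.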

How the data were processed

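RNA-seq counts of 5 uterine libraries were used, grouped by the sample titles. The reads were filtered and mapped by the authors with HISAT2 2.1.0, and raw counts per gene were deposited. HTSeq 0.6.0 and Bowtie2 2.2.3 are also named in the submitters' processing notes. The FPKM values were made by the authors and served only to compare genes. Their fold changes and p-values, in the same table, were not used. Positions in the table match GENCODE M21 on GRCm38 for 8 of the 9 genes; Has1 differs slightly at both ends.

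Counts were fitted over all genes with edgeR 4.0.16 in R 4.3.3 (filterByExpr, TMM factors 0.990 to 1.02, glmQLFit, glmQLFTest, two-sided, Benjamini-Hochberg adjustment over 17013 genes). The study's limits set a call: adjusted p under 0.05, log2 fold change beyond 1 in either direction. CPM are counts over TMM-scaled totals, and log2 CPM for the likeness used a prior count of 2. DESeq2 1.42.0, limma-voom (limma 3.58.1), other scalings and filters, a replicate block and the removal of each library were alternatives. Overlaps came from GENCODE exons, figures from matplotlib 3.10.9.

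The 9 genes and the lists were chosen with earlier results of these data known. Named were the 9 genes, pathway genes with an unadjusted p under 0.05 or among the 10 highest in FPKM, markers beside a result and the 3 genes most like each of the 3 most variable members (mean of at least 5 CPM). Tmem2 and a few genes outside this rule were named after their values were seen. Hyal4, Hyal6, Spam1, Fshr and Cyp19a1 were not analysed here, 1 pathway gene that is part of the counts is not reported here by itself, and the count of unused sample columns was 0.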

Additional observations from a re-analysis of the deposited data

How the results depend on the processing

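Over 106 refits of the 9 genes, 98 kept the sign and the side of the threshold, 4 gained a call (Has2 with DESeq2, and Vcan with DESeq2, without the filter on low counts and without young-SP replicate 1) and 4 turned the sign (Has1 and Has3). For Has1 the log2 fold change was 0.23 and ran from -1.10 to 0.90 with 1 library left out, being -1.10 without aged-SP replicate 1 and -0.35 without young-SP replicate 1. For Has3 it was -0.32, became 0.33 with the replicate block, and ran from -0.62 to 0.32 with 1 library left out, being 0.32 without young-SP replicate 2. Members called numbered 0, against 2 with DESeq2, 1 without the filter and 0 to 1 with 1 library left out. For the pathway genes these numbers were 0, 2, 1 and 0 to 2, with Hapln1 and Ptx3 called without young-SP replicate 1. Over all tested genes 25 were called, 632 with DESeq2, 203 without the filter, 2 with the replicate block and 1 to 578 with 1 library left out. The smallest was without aged-SP replicate 1, the largest without young-SP replicate 1, and leaving out aged-SP replicate 4 gave 49, young-SP replicate 2 gave 3 and young-SP replicate 4 gave 2. The cause of these shifts was not tested. A fit with 1 aged-SP library assumes that it varies like the young-SP libraries. Replicate numbers 1 and 4 occur in both groups, but no label says that they pair animals. Deviations from the group means of same-numbered libraries correlated at 0.152 and 0.136 over genes. The deviations of the 2 aged-SP libraries mirror each other, so the crossed pairs gave -0.152 and -0.136. Young-SP replicate 2 gave -0.0757 and 0.0757 with aged-SP replicates 1 and 4. These values are not independent and cannot decide whether the libraries pair. The block changed no call of the 9 genes. Has1 was not tested at 10 counts in every sample or without young-SP replicate 4. Has1 had 13 or fewer counts in every library, and its interval also holds the spread between libraries.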
